A study of Mus musculus with 11 samples.

Results

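The levels of 6 channel genes were followed through articular cartilage of the mouse knee: Piezo1, Piezo2 and Trpv4, which encode cation channels opened or tuned by mechanical load, Panx1 and Gja1, which encode the large-pore channel pannexin 1 and the gap junction protein connexin 43, and Scn11a, which encodes the voltage-gated sodium channel Nav1.9. These 6 of the 55421 genes in the count tables were listed by name, and their versioned Ensembl identifiers were matched to GRCm38 symbols. Scn11a was chosen by its large difference between the groups, so its levels and fold changes are given as a description, with no test, and the counts of channel genes that passed a test are out of the other 5.

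The tissue was taken 4 weeks after DMM, surgery that destabilizes the medial meniscus of the knee and serves to model osteoarthritis. Libraries of 3 groups of C57BL/6 mice, all 14 weeks of age, were compared: the DMM knee of c-FosDCh mice (4 libraries), the DMM knee of c-FosWT mice (3 libraries) and the contralateral knee of c-FosWT mice (4 libraries). The label c-FosDCh is read here as a deletion of Fos, which encodes an AP-1 transcription factor subunit, in chondrocytes; the labels name neither the driver nor the deleted part. The 3 c-FosWT animals with a DMM library each have a contralateral one as well, and the c-FosDCh libraries are of 4 different animals. Contralateral c-FosDCh knees were not analysed here, which leaves surgery within that genotype untested.

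Chondrocytes live in a matrix that is compressed with every step, and channels in their membrane turn that load into calcium entry. TRPV4 responds to the swelling and shrinking of the cell and drives matrix genes, whereas PIEZO1 and PIEZO2 open under membrane stretch and are known for their part in the response to strain at injurious levels. Connexin 43 couples neighbouring cells and, with pannexin 1, can release ATP, which purinergic receptors sense; Nav1.9 is known for its role in pain-sensing neurons.

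Levels are CPM (counts scaled to a common library total) after TMM scaling of between 13593454 and 18280558 gene counts per library. Replicates are named by number within their group, and ± stands for the SD of a level or the SE of a log2 fold change. All 19 cartilage markers were detected in the libraries, Acan at 6570 ± 3260 CPM in c-FosDCh DMM, 1220 ± 671 CPM in c-FosWT DMM and 2890 ± 582 CPM in c-FosWT contralateral libraries. Markers of other tissues were present too. Summed over their lists, cartilage markers ranged from 23800 to 89100 CPM in c-FosDCh DMM, 6850 to 18800 CPM in c-FosWT DMM and 22800 to 44000 CPM in contralateral libraries, and granulocyte markers from 550 to 13000, 9470 to 16800 and 4230 to 12200 CPM in the same order. The targeted gene did not check the labels: Fos stood at 19.4, 10.9, 29.5 and 33.0 CPM in c-FosDCh DMM libraries 1 to 4, against 12.1, 14.1 and 9.01 CPM in c-FosWT DMM knees and 17.1, 24.8, 22 and 15.7 CPM in contralateral libraries. It was therefore not lower in c-FosDCh knees, but counts over a whole gene do not show whether a part of it is deleted.

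Of the 5 channel genes, 1 passed the test between c-FosDCh DMM and c-FosWT DMM knees, and that gene was Trpv4, which rose. In that comparison edgeR's quasi-likelihood test called 14.4% of the 18125 genes tested at an adjusted p under 0.05 (Benjamini-Hochberg), 10.6% higher and 3.79% lower. The groups did not overlap for 3 of the 5, Trpv4 and Piezo1 being higher and Panx1 lower in every c-FosDCh DMM library than in any c-FosWT DMM library; of all genes tested, 33% likewise did not overlap between these groups, 17.2% higher and 15.8% lower. Between c-FosWT DMM and contralateral knees the groups did not overlap for 1 of the 5, Trpv4, and for 23.1% of all genes (10.1% higher, 13.1% lower), and between c-FosDCh DMM and contralateral knees for 0 of the 5 and 4.4% of all genes (2.28% higher, 2.12% lower). Between c-FosWT DMM and contralateral knees 0 of 5 passed, as did 0% of all genes, although 3605 genes had an unadjusted p under 0.05; DESeq2 called 825 genes there, Trpv4 among them, and limma-voom 0. Between c-FosDCh DMM and c-FosWT contralateral knees 0 of 5 passed, as did 0% of all genes, with 1512 genes at an unadjusted p under 0.05; DESeq2 called 37 genes, none of them one of the 5, and limma-voom 0. The median log2 fold change of the 5 was -0.13 for c-FosDCh DMM over c-FosWT DMM, against -0.01 for all genes tested. The 3 comparisons share libraries, so a group that is low or high enters 2 of them.

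**Figure D1:**
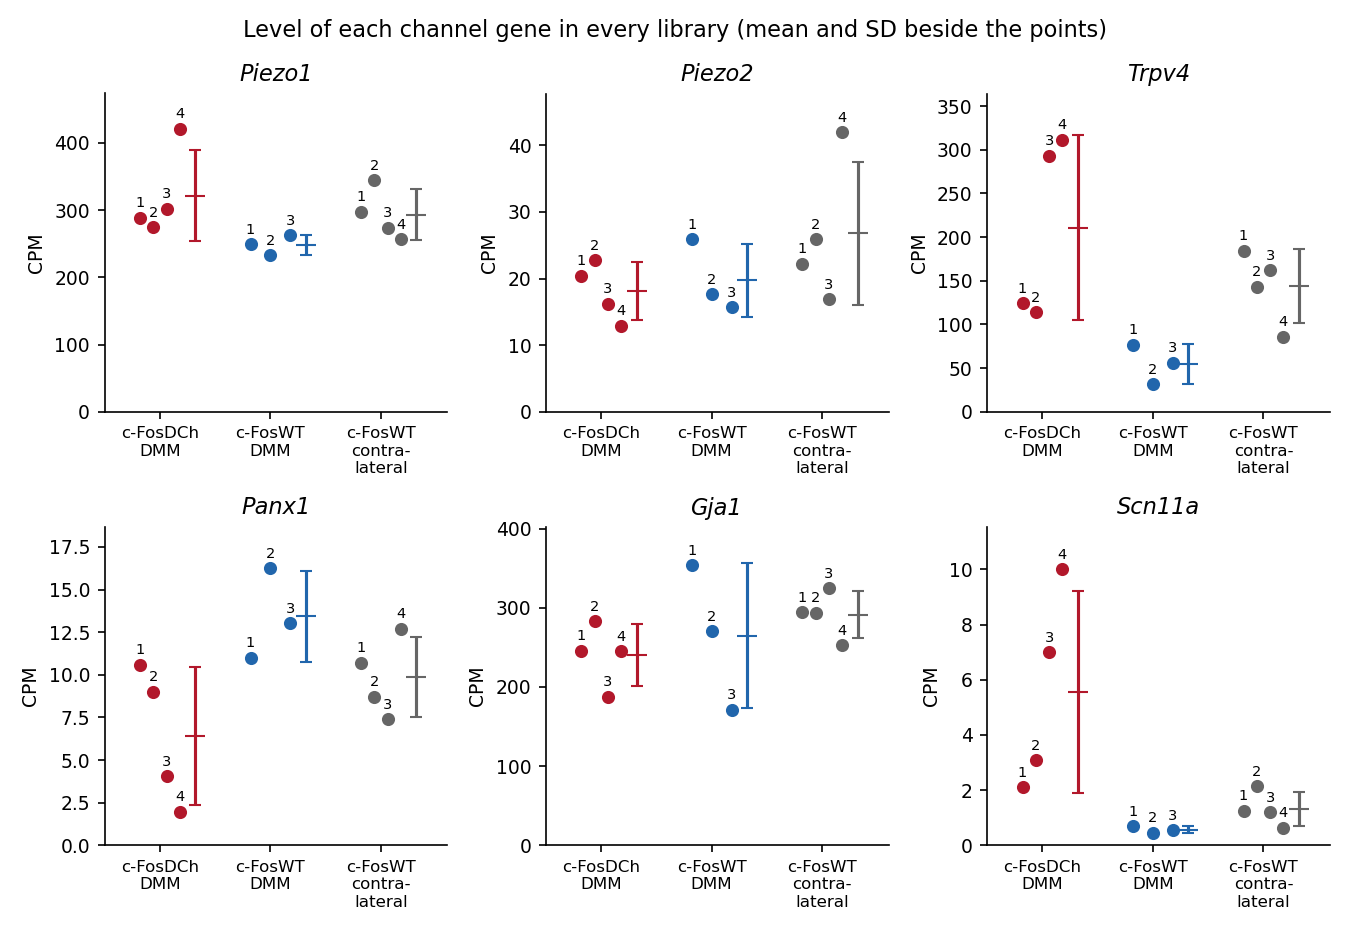
Level of each channel gene in CPM (vertical axes, each from 0) in c-FosDCh DMM (red), c-FosWT DMM (blue) and c-FosWT contralateral (grey) libraries. Each numbered point is 1 library, and the bar beside the points is the mean with its SD. Trpv4 and Scn11a are highest in c-FosDCh libraries 3 and 4, where Panx1 is lowest, while Gja1 and Piezo2 overlap between the groups.

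Trpv4 lies on the reverse strand of chromosome 5 (GRCm38, 114622152 to 114658421; ENSMUSG00000014158.12), and none of its exonic bases are shared with another gene. It encodes a calcium-permeable TRP channel that chondrocytes use to sense osmotic change. Its level was 124, 114, 293 and 312 CPM in c-FosDCh DMM libraries 1 to 4, against 76.8, 31.7 and 56.3 CPM in c-FosWT DMM knees and 184, 143, 162 and 85.8 CPM in contralateral libraries 1 to 4. All c-FosWT DMM libraries were below every library of both other groups, and c-FosDCh libraries 3 and 4 stood well above the other c-FosDCh libraries. Trpv4 was 3.84-fold higher in c-FosDCh DMM than in c-FosWT DMM knees (log2 fold change 1.94 ± 0.46, 95% interval 0.92 to 2.96, edgeR adjusted p = 0.0337). In c-FosWT DMM against contralateral knees the log2 fold change was -1.39 ± 0.45 (interval -2.39 to -0.39) and did not pass with edgeR (adjusted p = 0.182), whereas DESeq2 gave -1.37 (adjusted p = 0.0427). Against the same contralateral libraries, c-FosDCh DMM knees differed by 0.55 ± 0.40 on the log2 scale (interval -0.34 to 1.44, edgeR adjusted p = 0.647), and those groups overlapped.

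The Trpv4 call between the DMM groups was lost when any 1 of 6 libraries was left out. Its edgeR adjusted p was then 0.0888 without c-FosDCh DMM replicate 3 (log2 fold change 1.74), 0.0597 without c-FosDCh DMM replicate 4 (1.69), 0.143 without c-FosWT DMM replicate 2 (1.65), 0.106 without c-FosWT DMM replicate 3 (1.95), 0.0572 without contralateral replicate 1 (1.92) and 0.0508 without contralateral replicate 2 (1.92). With each of those 6 libraries left out, at most 1 gene of the whole table passed. Without both c-FosDCh DMM libraries 3 and 4 the Trpv4 log2 fold change was 1.11 (adjusted p = 0.183). In all, Trpv4 passed in 5 of 11 fits with 1 library left out and in 5 of 12 other settings.

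Trpv4 moved with cartilage markers across the libraries. The summed cartilage markers stood at 31300, 23800, 72600 and 89100 CPM in c-FosDCh DMM libraries 1 to 4, 18800, 6850 and 15500 CPM in c-FosWT DMM knees and 38500, 29400, 44000 and 22800 CPM in contralateral libraries. Over the 11 libraries, log2 Trpv4 and the log2 marker sum correlated with r = 0.99, and with r = 0.97 after the group means were taken out, as a description of libraries that share their mixture of tissues. Summed Schwann cell markers followed Trpv4 nearly as closely (r = 0.98, and 0.95 within groups), and fibroblast and erythroid markers gave r = 0.90 and -0.91. Prg4 alone gave 38700 of the 89100 CPM of the cartilage sum in c-FosDCh DMM replicate 4. The mean log2 score of the cartilage markers ordered the libraries otherwise, at 7.32 in c-FosDCh DMM replicates 1 and 2 and 7.96 in c-FosWT DMM replicate 1. Of the 19 cartilage markers, 7 were called higher and 0 lower in c-FosDCh DMM than in c-FosWT DMM knees, against 10.6% and 3.79% of all genes tested. By sign, 14 had a positive and 5 a negative log2 fold change. Among the 5 were Matn3, at 1.34 ± 1.84 against 46.4 ± 42.1 CPM, and Col9a1, at 35.4 ± 16.7 against 91.5 ± 69.6 CPM. The 7 calls depend on the fit, as the list calls given below do. In bulk tissue, more cells of a type and more RNA per cell cannot be told apart. With a mean cartilage marker score as a covariate the Trpv4 log2 fold change was 1.29 (edgeR adjusted p = 0.151), and with a score of erythroid and granulocyte markers it was 0.94 (adjusted p = 0.452); the part of tissue composition in the result was not tested beyond this. The 3 genes whose levels were most like Trpv4's, by Pearson correlation of log2 CPM over the 11 libraries among 12641 genes, were P4ha1, which encodes a collagen prolyl hydroxylase subunit (r = 0.994), the protein kinase gene Prkcz (0.993) and the proteoglycan gene Sdc4 (0.993). Sdc4 averaged 796 CPM in c-FosDCh DMM, 178 CPM in c-FosWT DMM and 460 CPM in contralateral libraries.

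The windows around the starts of Trpv4 and Scn11a are printed because these genes moved together (r = 0.86 over the 11 libraries, 0.82 within groups). The window of Gja1 is printed because it alone held the letters of an AP-1 site, the kind of site that FOS dimers bind. Each runs 5′ to 3′ on the gene's own strand from 250 bases before to 50 bases after the RefSeq start (GRCm38.p6). The windows lie at chr5:114658372-114658671 on the reverse strand for Trpv4, chr9:119825407-119825706 on the reverse strand for Scn11a and chr10:56377050-56377349 on the forward strand for Gja1. Capitals mark the GC box GGGCGG, on either strand, in Trpv4 and the AP-1 letters TGANTCA, which read the same on both strands, in Scn11a and Gja1.
Trpv4: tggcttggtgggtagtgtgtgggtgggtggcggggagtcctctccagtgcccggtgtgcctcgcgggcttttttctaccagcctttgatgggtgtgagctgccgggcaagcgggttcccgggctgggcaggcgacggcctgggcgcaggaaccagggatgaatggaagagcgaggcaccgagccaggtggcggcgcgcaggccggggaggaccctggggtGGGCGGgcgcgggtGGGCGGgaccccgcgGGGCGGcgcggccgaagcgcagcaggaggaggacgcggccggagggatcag
Scn11a: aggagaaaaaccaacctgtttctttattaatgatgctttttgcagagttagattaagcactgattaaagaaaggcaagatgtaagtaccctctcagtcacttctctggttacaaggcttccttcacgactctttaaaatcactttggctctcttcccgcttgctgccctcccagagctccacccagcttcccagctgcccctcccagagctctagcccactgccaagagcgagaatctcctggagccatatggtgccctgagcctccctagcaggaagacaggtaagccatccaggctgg
Gja1: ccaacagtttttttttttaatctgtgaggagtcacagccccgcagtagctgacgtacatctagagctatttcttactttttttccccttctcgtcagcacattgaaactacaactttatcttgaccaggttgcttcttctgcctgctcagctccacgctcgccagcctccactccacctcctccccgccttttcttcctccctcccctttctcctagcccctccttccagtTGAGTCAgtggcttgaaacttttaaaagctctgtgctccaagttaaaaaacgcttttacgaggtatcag
The Trpv4 window was 73.0% G or C with 3 GC boxes starting 30, 16 and 1 bases before the start; that of Scn11a was 50.3% G or C with no capitals, and that of Gja1 was 47.7% G or C with 1 AP-1 match starting 19 bases before the start. The median over all 32851 windows of the table was 52.7% G or C, 35.7% of them held a GC box and 7.8% held the AP-1 letters. Of the 5 channel genes other than Piezo2, Piezo1 and Trpv4 held a GC box and Gja1 the AP-1 letters; TGACGTCA, the cyclic AMP response element in 1.8% of all windows, was in none of them. A further 4 motifs, searched on both strands, were also in none: CATTCC (14.7% of all windows), ACAAAG (18.7%), GAGGAAGT (3.2%) and CACGTG (7.2%). No match overlapped a match to another motif.

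Piezo1, whose product is a stretch-gated channel of many cell types, spread over 1.8-fold between its lowest and highest library. It lies on the reverse strand of chromosome 8 (122481698 to 122551329; ENSMUSG00000014444.17), and 24.57% of its exonic bases are shared with Ctu2 on the other strand; Ctu2 had only 203 to 356 counts per library, against 3954 to 5300 for Piezo1. The level of Piezo1 was 289, 274, 302 and 421 CPM in c-FosDCh DMM libraries, against 249, 233 and 262 CPM in c-FosWT DMM knees and 298, 344, 274 and 256 CPM in contralateral libraries. Every c-FosDCh DMM library was above every c-FosWT DMM library, with the widest gap in c-FosDCh replicate 4. The log2 fold change between the DMM groups was 0.37 ± 0.17 (interval 0.00 to 0.75) and did not pass (edgeR adjusted p = 0.126). Neither did c-FosWT DMM against contralateral knees, at -0.24 ± 0.17 (interval -0.61 to 0.13, edgeR adjusted p = 0.424), nor c-FosDCh DMM against contralateral knees, at 0.13 ± 0.15 (interval -0.21 to 0.47, edgeR adjusted p = 0.745). Piezo1 correlated with Trpv4 at r = 0.79 over the 11 libraries. With summed cartilage and fibroblast markers r was 0.78 and 0.81, and with erythroid and osteoclast markers -0.89 and -0.88. Between the DMM groups its log2 fold change ran from 0.03 to 0.43 over 12 other settings and passed in 0. Beyond these settings the part of tissue composition in the Piezo1 level was not tested. Most like Piezo1 were Jund, which encodes an AP-1 subunit of the JUN family (r = 0.964), Uap1 (0.963) and Spag4 (0.954).

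Piezo2, best known as the touch receptor of sensory neurons and Merkel cells, was counted at far lower levels. It lies on the reverse strand of chromosome 18 (63010213 to 63387183; ENSMUSG00000041482.17), and its counts were between 163 and 789 per library. Its level was 20.4, 22.7, 16.2 and 12.9 CPM in c-FosDCh DMM libraries, 25.9, 17.6 and 15.7 CPM in c-FosWT DMM knees and 22.2, 25.9, 16.9 and 42.0 CPM in contralateral libraries. The groups overlapped in all 3 comparisons, and contralateral replicate 4 was the highest library. The log2 fold change was -0.13 ± 0.31 for c-FosDCh DMM over c-FosWT DMM (interval -0.82 to 0.57, edgeR adjusted p = 0.774) and -0.44 ± 0.32 for c-FosWT DMM over contralateral knees (interval -1.14 to 0.26, edgeR adjusted p = 0.439). For c-FosDCh DMM over contralateral knees it was -0.57 ± 0.29 (interval -1.21 to 0.08, edgeR adjusted p = 0.597). The first of these was above 0 in 5 other settings, at 0.08 for example without c-FosWT DMM replicate 1. Its most similar genes were Arpp19 (r = 0.938), the complement gene C1ra (0.895) and the matrix gene Svep1 (0.893).

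Panx1, whose channel releases ATP and is found in many cell types, ran opposite to Trpv4. It lies on the reverse strand of chromosome 9 (15002128 to 15045478; ENSMUSG00000031934.14). The level was 10.6, 9.01, 4.07 and 1.99 CPM in c-FosDCh DMM libraries, against 11, 16.3 and 13 CPM in c-FosWT DMM knees and 10.7, 8.71, 7.40 and 12.7 CPM in contralateral libraries. All c-FosDCh DMM libraries were below all c-FosWT DMM libraries, by a small margin for replicate 1 and by a wide one for replicates 3 and 4. The log2 fold change between the DMM groups was -1.06 ± 0.46 (interval -2.08 to -0.05) and did not pass (edgeR adjusted p = 0.115). Without c-FosDCh DMM replicate 1 it was -1.44 and passed (edgeR adjusted p = 0.0485). For c-FosWT DMM over contralateral knees it was 0.44 ± 0.45 (interval -0.57 to 1.45, edgeR adjusted p = 0.58), and for c-FosDCh DMM over contralateral knees -0.62 ± 0.43 (interval -1.58 to 0.33, edgeR adjusted p = 0.639).

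Panx1 moved with markers of leukocytes and of several other cell types outside cartilage. Summed macrophage markers were 2040, 1640, 610 and 251 CPM in c-FosDCh DMM libraries 1 to 4, 1750, 2370 and 2550 CPM in c-FosWT DMM knees and 1760, 1200, 1210 and 2100 CPM in contralateral libraries. Log2 Panx1 and the log2 macrophage sum correlated with r = 0.99 over the 11 libraries, and with r = 0.99 within groups, against r = -0.86 for cartilage markers. It correlated nearly as closely with T and NK cell (r = 0.98), endothelial (0.96), granulocyte (0.95), adipocyte (0.94) and erythroid (0.92) markers; the libraries share their mixture of tissues. None of the 10 macrophage markers was at 0 in all libraries; of the 9 tested, 0 passed and 9 had a negative log2 fold change between the DMM groups. The genes most like Panx1 were Nabp1 (r = 0.996), the myeloid kinase gene Lyn (0.995) and Clec7a (0.995), which encodes the fungal receptor dectin-1 of myeloid cells. With the score of erythroid and granulocyte markers as a covariate the Panx1 log2 fold change between the DMM groups was -0.04 (edgeR adjusted p = 0.972), and with the cartilage marker score it was -0.72 (adjusted p = 0.334).

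**Figure D2:**
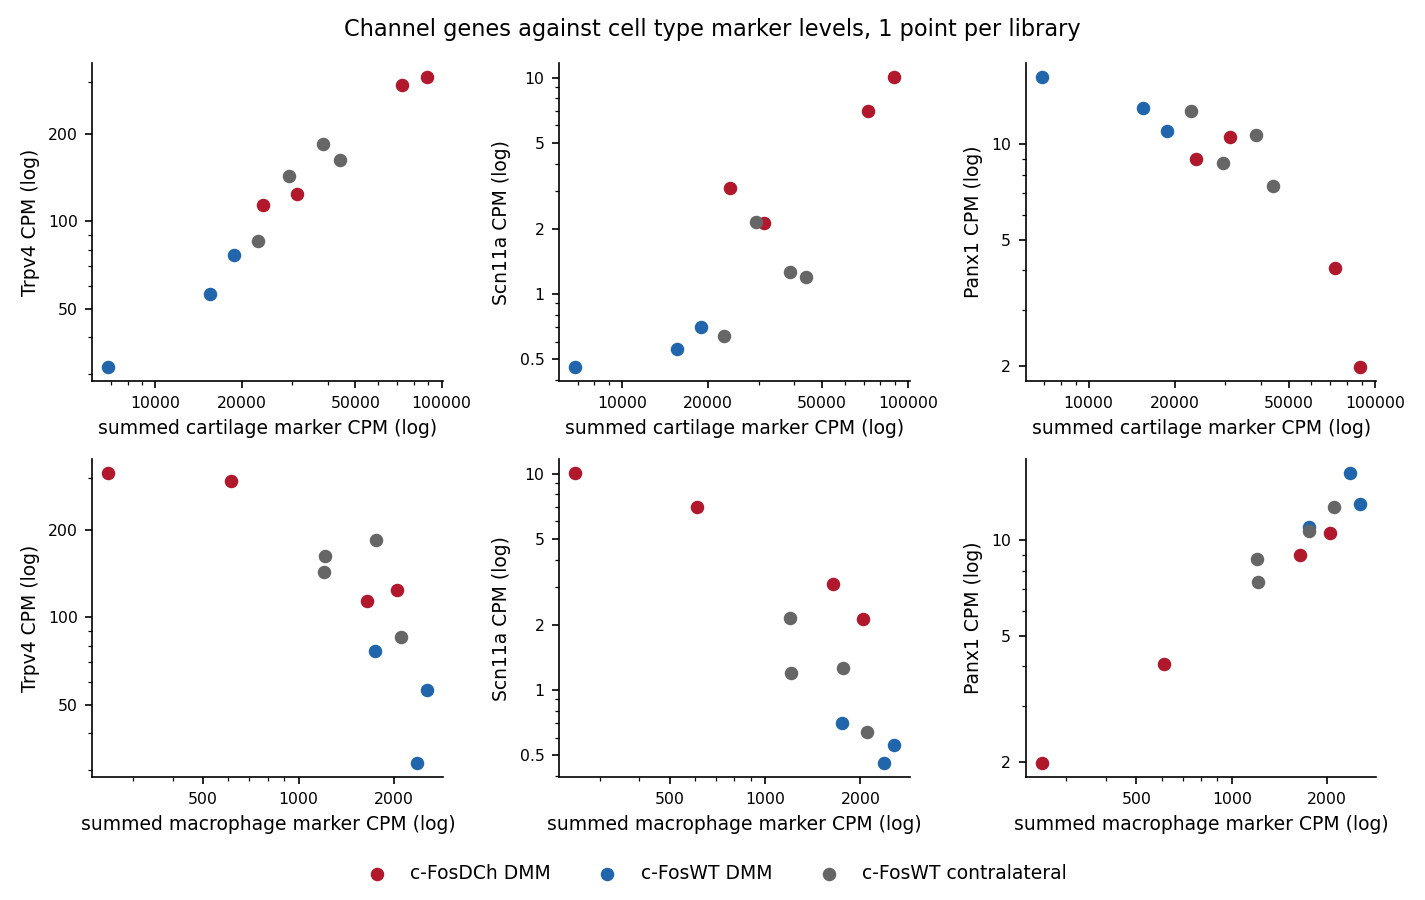
Trpv4, Scn11a and Panx1 in CPM (vertical axes, log scale) against the summed CPM of cartilage markers (upper row) and macrophage markers (lower row; horizontal axes, log scale), 1 point per library. Trpv4 lies close to a line with the cartilage markers (r = 0.99), Panx1 with the macrophage markers (r = 0.99), and Scn11a is looser around the cartilage markers (r = 0.83).

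Gja1, the connexin of osteochondral cells that forms gap junctions and hemichannels, had no shared direction. It lies on the forward strand of chromosome 10 (56377330 to 56402513; ENSMUSG00000050953.10). Its level was 246, 283, 188 and 245 CPM in c-FosDCh DMM libraries, 353, 270 and 171 CPM in c-FosWT DMM knees and 294, 294, 325 and 253 CPM in contralateral libraries. The groups overlapped in all 3 comparisons, with both the highest and the lowest library in c-FosWT DMM. The log2 fold change was -0.14 ± 0.22 for c-FosDCh DMM over c-FosWT DMM (interval -0.64 to 0.36, edgeR adjusted p = 0.653). It was -0.14 ± 0.23 for c-FosWT DMM over contralateral knees (interval -0.64 to 0.36, edgeR adjusted p = 0.733) and -0.28 ± 0.21 for c-FosDCh DMM over contralateral knees (interval -0.74 to 0.19, edgeR adjusted p = 0.654). Leaving out c-FosWT DMM replicate 1 moved the first of these to 0.09, and leaving out c-FosWT DMM replicate 3 moved the second to 0.10. Gja1 correlated with Trpv4 at r = -0.05 and with cartilage markers at r = -0.11. Most like it were Lgals8 (r = 0.937), Mrpl1 (0.866) and Prss35 (0.865).

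Scn11a, selected on its difference, was the lowest of the 6 per length, and its highest library was 21.8-fold above its lowest. It lies on the reverse strand of chromosome 9 (119753759 to 119825456; ENSMUSG00000034115.10). Its counts were 29, 53, 112 and 126 in c-FosDCh DMM libraries 1 to 4, against 12, 8 and 10 in c-FosWT DMM libraries and 20, 30, 20 and 12 in contralateral libraries. As levels these were 2.12, 3.08, 7.01 and 10 CPM in c-FosDCh DMM, 0.703, 0.458 and 0.556 CPM in c-FosWT DMM and 1.25, 2.14, 1.19 and 0.638 CPM in contralateral libraries. Every c-FosDCh DMM library was above every c-FosWT DMM library, whereas c-FosDCh replicate 1 fell just under contralateral replicate 2. The log2 fold change was 3.26 ± 0.62 for c-FosDCh DMM over c-FosWT DMM, or 9.57-fold, -1.17 ± 0.61 for c-FosWT DMM over contralateral knees and 2.09 ± 0.51 for c-FosDCh DMM over contralateral knees. Without both c-FosDCh libraries 3 and 4 the first was 2.16 and the last 1.03, and with the erythroid and granulocyte score as a covariate the 3 values were 1.80, -0.37 and 1.44. Without contralateral replicate 2, the highest contralateral library, c-FosWT DMM over contralateral knees was -0.81.

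Markers of the sensory neurons for which Scn11a is known were low in all groups. Summed sensory neuron markers were 14.2 to 17 CPM in c-FosDCh DMM, 10.8 to 17.1 CPM in c-FosWT DMM and 11.9 to 20.8 CPM in contralateral libraries, and they correlated with Scn11a at r = 0.28 over the 11 libraries. Of the 16 markers, 11 were under 1 CPM in every library, and Scn10a, the neighbouring gene for the pain-fibre sodium channel Nav1.8, and Nefm were at 0 counts in all 11. Of the 5 that were tested between the DMM groups, 2 passed, against 14.4% of all genes tested, and both were higher in c-FosDCh knees. These were Avil, which encodes an actin-binding protein, at 7.29 ± 2.1 against 2.54 ± 0.694 CPM, and the peripherin gene Prph at 1.36 ± 0.562 against 0.324 ± 0.186 CPM. The other 3 had negative log2 fold changes and did not pass, among them Uchl1 at 3.73 ± 2.51 against 6.79 ± 1.93 CPM and P2rx3 at 1.04 ± 0.64 against 2.27 ± 0.915 CPM. The sum therefore holds markers that moved in opposite directions. Like the list calls given below, the 2 calls depend on the fit. Correlations of Scn11a over all 11 libraries draw in part on the group difference it was chosen by, so values within groups stand beside them. Scn11a correlated with summed cartilage markers at r = 0.83 (0.75 within groups), Schwann cell markers at 0.87 (0.79) and fibroblast markers at 0.94 (0.84). With macrophage, T and NK cell, osteoclast and endothelial markers r was -0.87, -0.91, -0.94 and -0.94. Within groups it was -0.91, -0.94, -0.87 and -0.88. Dcn alone gave 4290 of the 5400 CPM of the fibroblast sum in c-FosDCh DMM replicate 3 and 5620 of 6770 CPM in replicate 4. Of the 11 fibroblast markers, 6 had a positive and 5 a negative log2 fold change between the DMM groups. Beyond the covariate fit the part of tissue composition in the Scn11a level was not tested.

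Among the genes whose levels were most like Scn11a's over the 11 libraries were Lztr1 (r = 0.978), Secisbp2l (0.978), Ccdc157 (0.974), Syt11 (0.971), Xkr6 (0.97), Tiam2 (0.97) and the nuclear non-coding RNA Malat1 (0.97). Malat1 ranged from 13300 to 34900 CPM, averaging 26200 CPM in c-FosDCh DMM, 14800 CPM in c-FosWT DMM and 19500 CPM in contralateral libraries. Xkr6, the only one of these with a mean under 10 CPM, averaged 8.41, 3.13 and 4.13 CPM in the same order. This likeness also draws in part on the group difference that Scn11a was chosen by.

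**Figure D3:**
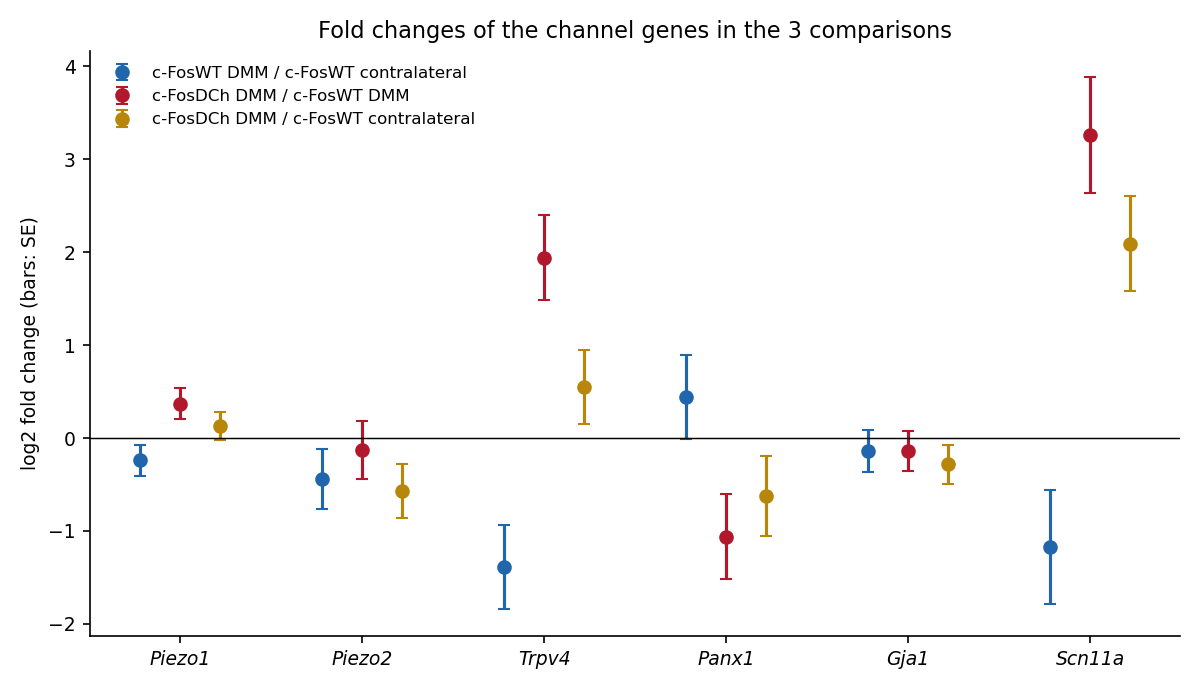
Log2 fold change of each channel gene (vertical axis; points with SE bars) for c-FosWT DMM over contralateral (blue), c-FosDCh DMM over c-FosWT DMM (red) and c-FosDCh DMM over contralateral (gold) libraries. Among the red points Scn11a (3.26) and Trpv4 (1.94) stand highest and those of Gja1 and Piezo2 lie near 0; the gold point of Scn11a is at 2.09.

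Levels can be set against each other only per length. The length taken first was that of the longest transcript tagged with a consensus coding sequence (CCDS). Per kilobase of that transcript, Gja1 averaged 75.6 ± 12.4 CPM in c-FosDCh DMM, 83.2 ± 28.7 CPM in c-FosWT DMM and 91.5 ± 9.28 CPM in contralateral libraries. In the same order Trpv4 averaged 65.3 ± 32.9, 17 ± 7 and 44.6 ± 13.1 CPM, and Piezo1 39.1 ± 8.18, 30.2 ± 1.77 and 35.7 ± 4.64 CPM. Far below them on the same scale lay Piezo2 at 1.69 ± 0.407, 1.84 ± 0.508 and 2.5 ± 1.01 CPM, Panx1 at 1.12 ± 0.707, 2.34 ± 0.462 and 1.72 ± 0.406 CPM and Scn11a at 0.941 ± 0.618, 0.097 ± 0.0209 and 0.222 ± 0.105 CPM per kilobase. Scn11a was under Panx1 and Piezo2 in every c-FosWT DMM and contralateral library, while in c-FosDCh DMM libraries the ranges of the 3 overlapped. Panx1 and Piezo2 overlapped in all 3 groups. Piezo1, at 28.4 to 31.9 CPM per kilobase, was above Trpv4, at 9.81 to 23.8, in every c-FosWT DMM library, and these genes overlapped in both other groups. Among the upper 3, the order depended on the length: per kilobase of merged exons, which are 10257 bases for Gja1 against 3182 in the transcript, the means over all libraries were 35.3 CPM for Trpv4, 29.3 for Piezo1 and 25.9 for Gja1. On that scale 95.6% of the tested genes lay below Trpv4, 94.4% below Piezo1, 93.3% below Gja1, 27.7% below Panx1, 23.6% below Piezo2 and 9.9% below Scn11a.

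Both knees of the same 3 c-FosWT animals could be compared. Trpv4 was lower in the DMM knee in 3 of 3 animals, at 76.8 against 184 CPM, 31.7 against 143 CPM and 56.3 against 85.8 CPM, or log2 differences of -1.26, -2.17 and -0.61. Scn11a was also lower in 3 of 3, by log2 differences of -0.74, -1.96 and -0.16. For Piezo1 the differences were -0.26, -0.56 and 0.03, for Piezo2 0.22, -0.55 and -1.41, and for Gja1 0.26, -0.12 and -0.56, so none of these had a common direction. Panx1 was higher in the DMM knee in 3 of 3 animals, but by log2 differences of 0.04, 0.89 and 0.03. The share of all genes with a common direction in 3 of 3 animals was not computed. With the animal as a block, edgeR called 0 of 5 channel genes and 0 genes of the whole table.

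**Figure D4:**
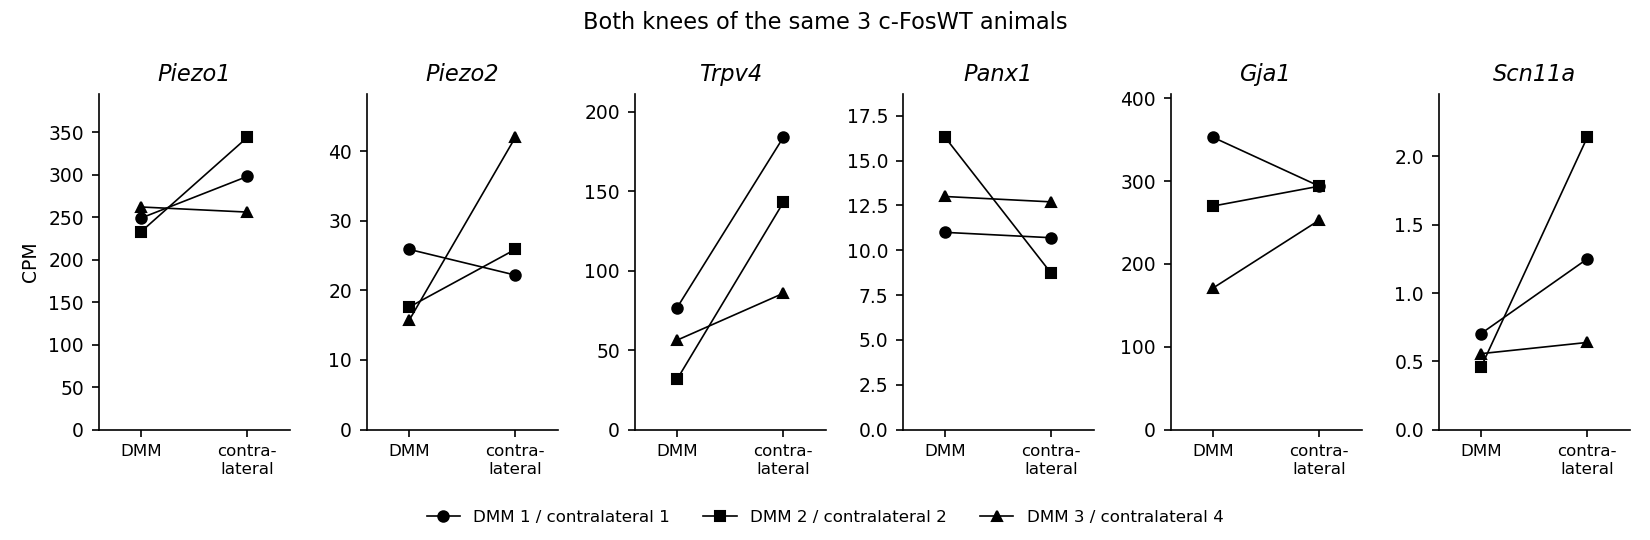
Level of each channel gene in CPM (vertical axes, each from 0) in the DMM knee (left) and the contralateral knee (right) of 3 c-FosWT animals, 1 line per animal. All 3 lines climb towards the contralateral knee for Trpv4 and Scn11a, those of Panx1 fall, by little in 2 animals, and those of Piezo1, Piezo2 and Gja1 run both ways.

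The wider channel families were read from lists of named genes, and all list calls that follow are for c-FosDCh DMM over c-FosWT DMM knees, with edgeR at an adjusted p under 0.05; in both other comparisons 0 genes of any list passed. Each count stands against 10.6% of all genes tested that were called higher, 3.79% called lower and a median log2 fold change of -0.01, and the lists were not tested against each other or against other genes. All these calls depend on the fit: with the erythroid and granulocyte, the cartilage or the muscle marker score as a covariate, or with only the libraries of the 2 groups, 0 genes of the whole table passed. Of 26 TRP channel genes 13 were tested, 5 rose and 0 fell, with a median log2 fold change of 0.56. Besides Trpv4 these were Trpm6, a magnesium channel, at 59.4 ± 27 against 10.2 ± 3.78 CPM (log2 fold change 2.53), the polycystin gene Pkd2 at 305 ± 92.5 against 123 ± 32.5 CPM (1.31), Trpc1 at 13.6 ± 4.87 against 6.96 ± 1.48 CPM (0.97) and Trpm4 (0.56). Trpm7, which couples a channel to a kinase, and Trpm2, an oxidant-sensing channel of leukocytes, did not pass, at log2 fold changes of 0.41 (edgeR adjusted p = 0.0552) and -1.34 (0.165).

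Among 21 other mechanically gated channel and accessory genes, 14 were tested, 4 rose and 1 fell, with a median log2 fold change of 0.23. Pkd1, the partner of Pkd2 in the cilium, was at 2250 ± 718 CPM in c-FosDCh DMM against 662 ± 183 CPM in c-FosWT DMM libraries (1.77). The stretch-activated channel genes Tmem63a and Tmem63b were at 160 ± 43.7 against 83.7 ± 11.7 CPM (0.94) and 60.7 ± 13.6 against 34.3 ± 4.8 CPM (0.82). Asic2, an acid-sensing channel gene, also rose but was scarcely counted, at 1.03 ± 0.761 against 0.0776 ± 0.0896 CPM. Lrrc8b, a subunit of the volume-regulated anion channel, fell to 10.9 ± 2.52 CPM in c-FosDCh DMM, against 21.4 ± 1.74 CPM in c-FosWT DMM libraries (-0.97), while its relatives Lrrc8c and Lrrc8d had log2 fold changes of -0.18 and -0.38 that did not pass.

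**Figure D5:**
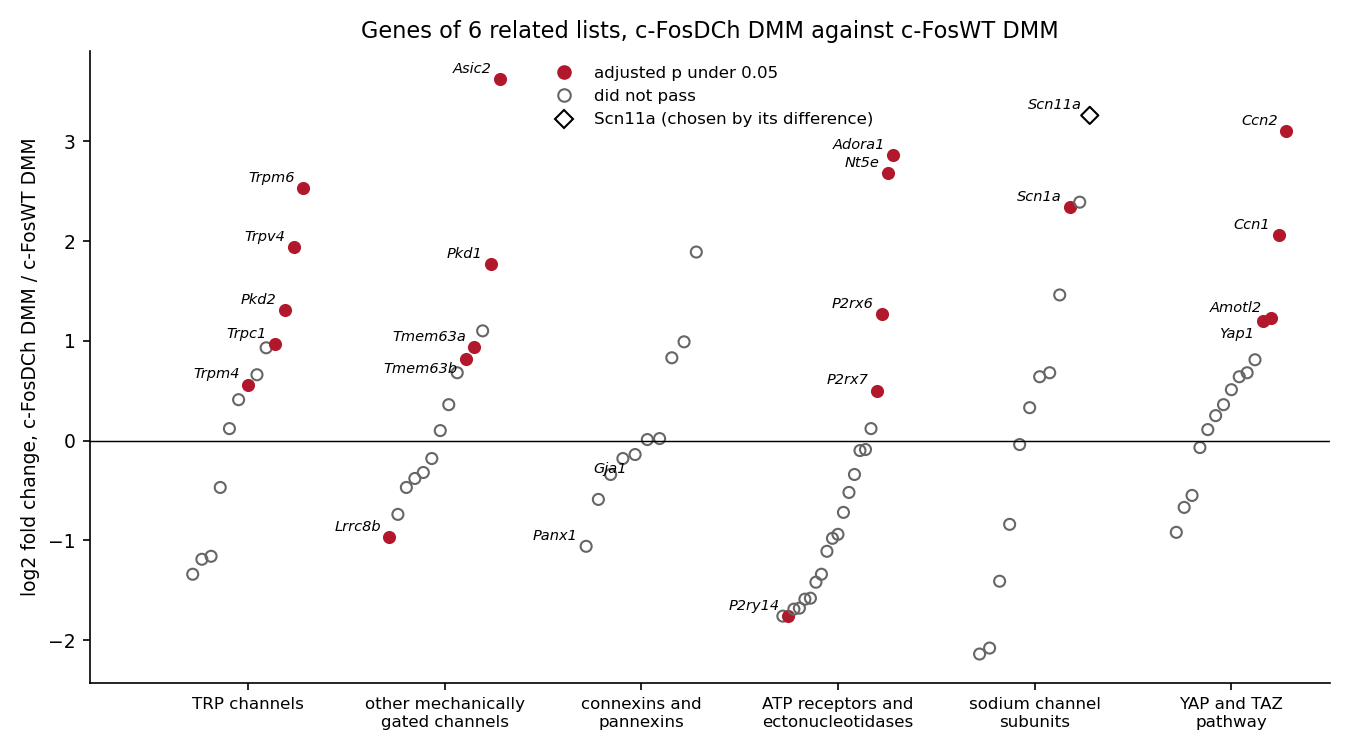
Log2 fold change of c-FosDCh DMM over c-FosWT DMM (vertical axis) for every tested gene of 6 lists (horizontal axis), ordered by value within each list. Filled red points passed at an adjusted p under 0.05, open points did not, and the diamond is Scn11a, which was chosen by its difference. Of all genes tested 14.4% passed, and the filled points of each list are to be read beside that share.

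Of 23 connexin and pannexin genes 10 were tested and 0 passed (14.4% of all genes did), with a median log2 fold change of -0.07 between the DMM groups. Panx3, the pannexin of skeletal tissue, stood at 20.9 ± 10 CPM in c-FosDCh DMM, 20.8 ± 10.4 CPM in c-FosWT DMM and 27.8 ± 17.3 CPM in contralateral libraries. Gjc3 was at 42.9 ± 28.9, 11.5 ± 8.1 and 32.7 ± 13.5 CPM in the same order (log2 fold change between the DMM groups 1.89, edgeR adjusted p = 0.0687). Downstream of ATP release, 21 of 22 genes for ATP and adenosine receptors and ectonucleotidases were tested, 4 rose and 1 fell, with a median log2 fold change of -0.94. The 4 were the adenosine receptor gene Adora1 at 16.2 ± 9.84 against 2.21 ± 0.808 CPM (2.86), Nt5e, whose product makes adenosine from AMP, at 619 ± 373 against 96.8 ± 48.9 CPM (2.68), P2rx6 at 7.35 ± 0.648 against 3.04 ± 1.39 CPM (1.27) and P2rx7 at 32.5 ± 4.43 against 23.1 ± 1 CPM (0.50). P2ry14, a receptor for UDP-sugars, fell to 2.25 ± 0.851 CPM in c-FosDCh DMM, against 7.66 ± 2.55 CPM in c-FosWT DMM libraries (-1.76). Entpd1, an ectonucleotidase of leukocytes and endothelium, and the ATP receptor gene P2rx4 did not pass, at -0.94 (edgeR adjusted p = 0.167) and -0.10 (0.575).

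Besides Scn11a, 11 genes for voltage-gated sodium channel subunits were tested, 1 rose and 0 fell, a share near the 10.6% of all genes called higher, with a median log2 fold change of 0.33. That 1 was Scn1a, known as a channel of neurons, at 19.8 ± 7.3 CPM in c-FosDCh DMM, 3.89 ± 1.56 CPM in c-FosWT DMM and 10.3 ± 2.73 CPM in contralateral knees (log2 fold change between the DMM groups 2.34 ± 0.39, edgeR adjusted p = 0.0332). Scn2a was at 12.8 ± 2.06 against 7.96 ± 2.44 CPM (0.68, edgeR adjusted p = 0.0645) and the muscle channel gene Scn4a at 4.71 ± 3.79 against 20.9 ± 25.9 CPM (-2.14, adjusted p = 0.21). The c-FosWT DMM libraries held 50.7, 8.59 and 3.5 CPM of Scn4a beside summed skeletal muscle markers of 10100, 644 and 283 CPM, so replicate 1 carries that mean. Of 16 genes of the YAP and TAZ pathway, which relays stretch and stiffness to the nucleus, 15 were tested, 4 rose and 0 fell, with a median log2 fold change of 0.51. These were the target genes Ccn2 at 3180 ± 2720 against 371 ± 165 CPM (3.10), Ccn1 at 244 ± 110 against 58.6 ± 24.4 CPM (2.06) and Amotl2 at 134 ± 33.9 against 57 ± 8.82 CPM (1.23), and Yap1 itself at 134 ± 30.6 against 58.3 ± 15.2 CPM (1.20). The kinase gene Stk4 and the receptor gene Axl did not pass, at -0.92 (edgeR adjusted p = 0.0739) and 0.11 (0.581). At most 1 gene of these lists passed when any 1 of the 6 libraries named for Trpv4 was left out.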

How the data were processed

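Poly(A) RNA of dissected cartilage was sequenced from directional libraries as single reads, per the labels' protocols. STAR 2.6.1a and the build GRCm38 are named in the submitters' processing notes. The authors deposited raw counts per gene, 55421 genes and 4 read classes per library, and the read classes stayed out of all totals, which left 33.08 to 43.16% of reads. Symbols came from GENCODE M21 by Ensembl identifier. Of 457 genes lying wholly inside the exons of a gene on the other strand, 239 had counts, which only counting by strand can give. All pairs of libraries within a group differed by more than sampling noise (lowest chi-square per degree of freedom 24.9), so each was 1 replicate; 2 c-FosDCh labels carry the same number, and these libraries were numbered by accession.

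R 4.3.3 with edgeR 4.0.16 fitted all 11 libraries by group (filterByExpr, TMM, robust quasi-likelihood, two-sided, Benjamini-Hochberg over 18125 genes, threshold 0.05); CPM and folds are from this fit, with intervals at 95%. Alternatives used DESeq2 1.42.0 and limma 3.58.1. The procedure was tested on simulated data. The channel genes and lists were chosen with earlier results of these data known. Named genes were, per list, the 4 with the highest mean CPM and up to 4 called by smallest p; Trpm4, Asic2, Avil, Prph and Acan were named after their values were seen. Some genes that this rule picks are not reported here. The c-FosWT pairs come from animal names in the titles; deviations of same-animal libraries correlated at -0.17, -0.18 and 0.25. Labels do not say whether animals shared litters.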

Additional observations from a re-analysis of the deposited data

Results flagged for a closer look

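Of 72 groups of 4 libraries examined, 2 held a library far from the other 3, where chance flags about 1 in 20. Neither was in one of the 6 channel genes. The groups were those of the channel genes, Fos and list genes picked by level or by call. Cell type markers, genes named for their likeness to a channel gene and genes named after their values were seen were not all examined. Scn4a, the muscle sodium channel gene, stood at 46.6 CPM in contralateral replicate 2, against 2.07, 2.51 and 3.78 CPM in the other contralateral libraries; summed skeletal muscle markers were 6750 CPM in replicate 2 and 59.2 to 484 CPM in the others. Tmem63a stood at 100 CPM in contralateral replicate 4, against 124, 128 and 128 CPM in the others.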

How the results depend on the processing

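Of 420 log2 fold changes of the 6 channel genes under other settings, 385 kept their direction and, for the 5 tested genes, their side of the threshold. Scn11a has no test, so its value had to stay within a pooled within-group SD of that in the fit as reported. Counts of genes called are not in this tally. For the 2 DMM groups, the number of genes called was not kept in 9 of 11 fits with 1 library left out and in 8 of 12 other settings. Between c-FosDCh DMM and c-FosWT DMM knees the fit as reported called 1 of 5 channel genes and 2616 genes. Without a filter on low counts it was 0 and 1443, with only the 2 groups 0 and 0, with the marrow (erythroid and granulocyte), the cartilage or the muscle marker score as a covariate 0 and 0 each, without both c-FosDCh libraries 3 and 4 or both muscle-rich libraries (c-FosWT DMM replicate 1 and contralateral replicate 2) 0 and 0 each, and with DESeq2 5257 genes. Leaving out 1 library gave 0 to 2 channel genes and 0 to 4626 genes. Scaling by library totals alone gave 54.5% of calls higher, DESeq2 55% and limma-voom 57.5%, against 73.7%. Between c-FosWT DMM and contralateral knees DESeq2 called 1 channel gene, Trpv4, and 825 genes; the replicate block by animal called 0 and 0 and changed no call. Between c-FosDCh DMM and contralateral knees DESeq2 called 37 genes, and leaving out 1 library gave 0 to 1. Why these counts differ between settings was not tested.

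Log2 fold changes that changed sign, all without passing: for c-FosWT DMM over contralateral knees, Panx1 was -0.30 with the marrow score and -0.14 with the cartilage score, and Gja1 0.10 without c-FosWT DMM replicate 3 (-0.37 to 0.10 over the libraries left out in turn). For c-FosDCh DMM over c-FosWT DMM, Piezo2 was 0.36 with the marrow score, 0.06 with the muscle score, 0.08 without c-FosWT DMM replicate 1 (-0.28 to 0.08 over the libraries left out in turn), 0.12 without c-FosDCh libraries 3 and 4 and 0.08 without the muscle-rich libraries, and Gja1 was 0.00, 0.09 and 0.09 with the muscle score, without c-FosWT DMM replicate 1 and without the muscle-rich libraries (-0.39 to 0.09 over the libraries left out in turn). For c-FosDCh DMM over contralateral knees, Piezo1 was -0.05 by library totals, -0.02 with the marrow score and -0.04 without c-FosDCh libraries 3 and 4, where Trpv4 was -0.25 and Panx1 0.00. Counts of 8 to 12 limit Scn11a in c-FosWT DMM knees.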
